A study of Homo sapiens with 4 samples.

Results

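The integrin subunits and the focal adhesion adaptors that join them to actin were examined in T24 cells, a human bladder carcinoma line. The members were the genes whose symbol is that of an integrin alpha or beta subunit, with ITGA6 and ITGB4 left out, and 18 named adaptors and kinases. This gave 43 gene identifiers with 42 symbols among the 57879 genes of the files: 17 alpha subunits, 8 beta subunit entries (ITGB3 has 2 identifiers) and the 18 adaptors and kinases. RNAseq had been made from cells stably transduced by lentivirus with an empty vector (EV, the control) or with the catalytic domain of TET1 (TET1-CD), with 2 libraries in each group. Both lines were selected with puromycin and grown in RPMI with serum, and the source label of all 4 libraries reads T24_induced, a word the sources used here do not explain. Whether the libraries of a group came from separate cultures is not stated, so p-values measure only the spread between these libraries, which may be technical.

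Integrins are receptors made of 1 alpha and 1 beta subunit that bind extracellular matrix outside the cell. On the inside, the tail of the beta subunit is bound by talin and kindlin, and a layer of adaptors forms around it. Paxillin (PXN) and p130Cas (BCAR1) are scaffolds for the kinases FAK (PTK2) and SRC, vinculin (VCL) and the alpha-actinins (ACTN1 and ACTN4) tie the complex to actin, and ILK, the PINCH proteins (LIMS1 and LIMS2) and the parvins (PARVA, PARVB and PARVG) form a pseudokinase complex. In urothelium and in carcinoma cells these assemblies anchor cells and carry signals for spreading and migration.

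TET1 had 111 and 83 counts with EV and 2939 and 3310 with TET1-CD. This difference had the direction that the labels imply, although the counts do not separate the cloned domain from the endogenous transcript. Fragments totalled between 17442143 and 20295266 per library, and the totals of the groups overlapped. The markers of simple epithelium and of mesenchyme were abundant, and some moved with the groups. KRT7 had 18429 and 15981 counts with EV and 20533 and 22638 with TET1-CD (log2 fold change 0.34, edgeR's adjusted p = 0.00175), and VIM had 63997 and 59891 with EV and 43958 and 50115 with TET1-CD (log2 fold change -0.39, edgeR's adjusted p = 0.00232). Of the 12 urothelial and epithelial markers, 6 were tested and 4 were called, each higher with TET1-CD. Among them were KRT19 (log2 fold change 1.01, edgeR's adjusted p = 0.00273) and GATA3, with 19 counts in both EV libraries and 46 and 44 with TET1-CD. KRT8, another abundant marker, was not called. It had 15684 and 13472 counts with EV and 13053 and 14312 with TET1-CD, and relative to library size both TET1-CD libraries were lower. Of the 3 mesenchymal markers, VIM was called and CDH2 and ZEB1 were not. PPARG had 363 to 461 counts, KRT5 was at 0, and the 4 uroplakin genes and TP63 had at most 6 counts in any library. The part of this marker shift in the members' changes was not tested.

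TET1 acts on methylated CpG, so the CpG content in front of the members is given as background. DNA methylation was not measured in these files. On GRCh37, the 250 bases before the start of the transcript with most counts (GENCODE release 44 models) were read for 13490 of the 14573 tested genes and for 32 of the 34 tested members. The motif CG, which is the same on both strands, was counted in each window, and 98.6% of the windows held at least 1. The median was 20.5 CG over the tested members and 20 over all tested genes. Members that were higher with TET1-CD had a median of 25 (n = 12, range 1 to 40), those that were lower 14.5 (n = 4, range 2 to 47) and those not called 17 (n = 16, range 0 to 34). Over all genes the medians were 21.0 for the higher, 20 for the lower and 20 for the uncalled genes. The ranges of the 3 member groups overlapped widely, and no test was made.

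The sequence in front of ITGB8 is shown, since this gene had the smallest p among the members. It is on the plus strand of GRCh37 and is written 5′ to 3′ with each CG in capitals. The window before ENST00000222573 (21 CG) overlapped an annotated exon, so the window 198 bases further upstream is given, chr7:20370075-20370324. It ends before the first annotated base of the gene and holds 16 CG. The window directly before the transcript, placed as for the other genes, held more CG than 50.2% of the windows of tested genes.
ITGB8: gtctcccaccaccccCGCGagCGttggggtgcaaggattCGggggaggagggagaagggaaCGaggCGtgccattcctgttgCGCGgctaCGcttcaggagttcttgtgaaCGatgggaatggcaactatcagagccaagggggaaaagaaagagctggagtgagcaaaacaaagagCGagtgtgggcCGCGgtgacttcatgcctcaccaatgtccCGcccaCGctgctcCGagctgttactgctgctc

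The comparison asked which members changed when the TET1 catalytic domain was expressed. Of the 43 members, 34 had enough counts for a test and 16 of these were called, 12 of them higher and 4 lower with TET1-CD. A call means an adjusted p under 0.05 in edgeR's quasi-likelihood test, with Benjamini-Hochberg adjustment over all 14573 genes tested. The 16 calls are 47.1% of the tested members, against 19.7% of all tested genes. In all tested genes 10.0% were called higher and 9.61% lower. Calls are easier at high counts, and among genes above the median count level 23.4% were called, against 12 of the 22 members above that level (54.5%). The median log2 fold change was 0.16 over the tested members and 0.001 over all tested genes. A fold change of 2 with the same adjusted p was reached by 4 members, PARVG and LIMS2 (higher) and ITGB8 and ITGAM (lower), against 3.77% of all genes. PARVG passed the filter on low counts through its TET1-CD libraries and ITGAM through its EV libraries, so a difference in these genes follows in part from the filter. The libraries of the groups did not overlap for 26 of the 34 members, and for 61.0% of all tested genes. Most of the called changes were small. DESeq2 called 12 of 35 members, against 9.13% of all genes given an adjusted p. It did not call BCAR1, ITGAM, ITGB2, LIMS2 and PTK2B and did call ITGA3. Limma on log2(FPKM + 0.1) called 11 members, against 10.9% of all tested genes, without BCAR1, ITGA2, ITGB2, LIMS1 and PTK2B. The 4 fits that each left out 1 library had a single library in a group. Without either TET1-CD library most of the 16 calls were lost, among them those of every called adaptor and kinase but PARVG. Fewer of all tested genes were called in these fits too, and what lay behind the loss was not tested. All 16 kept their direction in each of these 4 fits.

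**Figure D1:**
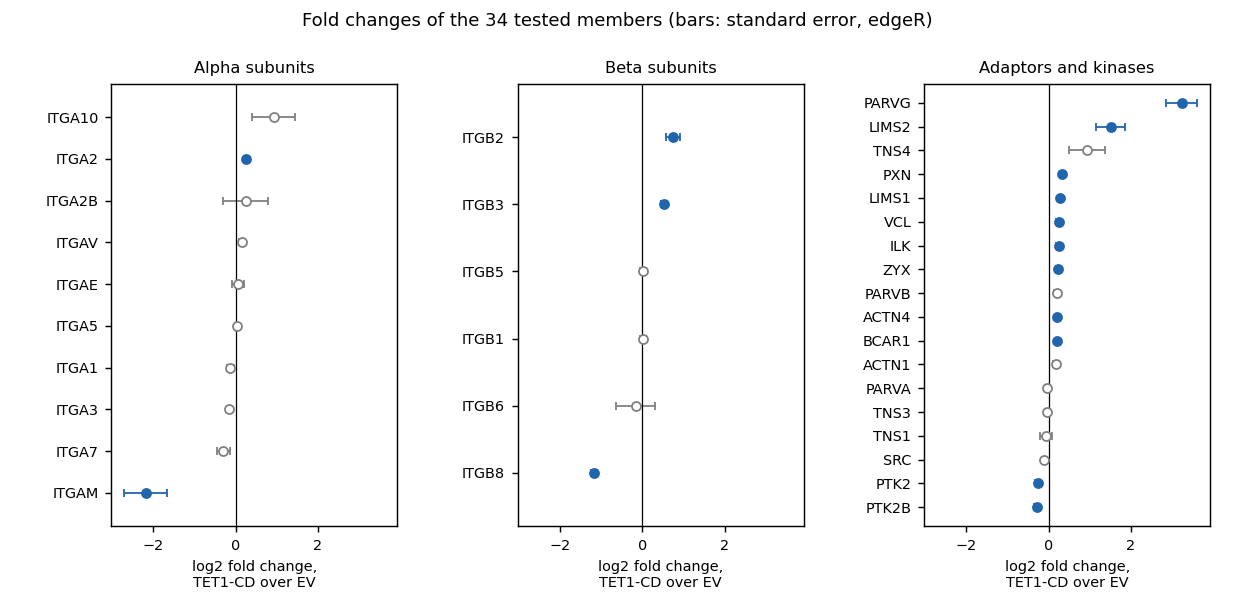
Log2 fold change (TET1-CD over EV, x axis) of each of the 34 tested members, in a panel for each role, with bars for the standard error; filled points have an adjusted p under 0.05. Most filled points lie close to 0, and ITGB8, ITGAM, PARVG and LIMS2 lie beyond a fold change of 2.

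Among the alpha subunits, which set ligand choice together with the beta subunits, the abundant chains changed little. Of 17, 10 were tested and 2 were called, ITGA2 (higher) and ITGAM (lower). A share of 2 in 10 is close to the 19.7% called over all tested genes. Levels per length (FPKM) were highest for ITGA3, a laminin receptor chain, at 153 and 145 with EV and 133 and 134 with TET1-CD. ITGA3 took 51.6% and 50.9% of the summed FPKM of the alpha subunits with EV and 47.0% and 45.4% with TET1-CD. Its 14668 and 11852 counts with EV and 10974 and 12338 with TET1-CD gave, after TMM normalization, a log2 fold change of -0.17 (standard error, SE, 0.05, edgeR's adjusted p = 0.0529). Both TET1-CD libraries were below both EV libraries after normalization, and the call was missed narrowly.

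ITGA2, the chain of a collagen receptor on chromosome 5 (52285156 to 52390609), had 4724 and 3865 counts with EV and 4601 and 5476 with TET1-CD. The raw counts of the groups overlapped, whereas the normalized counts, 4265 ± 133 (SD, n = 2) and 5056 ± 226 (SD, n = 2), did not. The log2 fold change of ITGA2 was 0.25 (SE 0.06, edgeR's adjusted p = 0.014), a rise of 18.5%. Transcript ENST00000296585 held at least 99.6% of its counts in every library. Within each library, the ratio of ITGA2 to ITGA3 counts was 0.322 and 0.326 with EV and 0.419 and 0.444 with TET1-CD, so the groups did not overlap. This ratio, like the other count ratios given here, was chosen after the values were seen, so groups that lie apart in it add no support.

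ITGA5, the alpha chain of the classical fibronectin receptor, had 3930 and 3231 counts with EV and 3454 and 3765 with TET1-CD, with FPKM between 47.8 and 50.2. Its groups overlapped, and the log2 fold change was 0.03 (SE 0.05, edgeR's adjusted p = 0.746). ITGAV, the chain that pairs with several beta subunits to bind RGD ligands such as vitronectin, had 5606 and 4548 counts with EV and 5139 and 6030 with TET1-CD. Its FPKM was between 37.5 and 44.9, and both normalized TET1-CD values were above both EV values, with a log2 fold change of 0.15 (SE 0.06, edgeR's adjusted p = 0.0809).

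ITGAM, known as CD11b on myeloid cells, had 22 and 29 counts with EV and 3 and 8 with TET1-CD. The groups did not overlap, but all values were small, and the log2 fold change of -2.19 carried a standard error of 0.52 (edgeR's adjusted p = 0.0165). Without single libraries it ranged from -2.95 (without TET1-CD replicate 2, edgeR's adjusted p = 0.0533) to -1.73 (without TET1-CD replicate 1, edgeR's adjusted p = 0.172), and it was -0.67 with limma on log2(FPKM + 1). ITGAM could not be tested when 10 counts were required in every library. Its fragments were assigned to ENST00000544665 with 17 and 10 counts with EV and 0 in both TET1-CD libraries, and to ENST00000287497 with 0 and 16 with EV and 3 and 8 with TET1-CD.

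The other tested alpha subunits were ITGA1, ITGA7, ITGA10, ITGA2B and ITGAE, and none was called. ITGA1 (368 to 470 counts) had a log2 fold change of -0.13 and ITGA7 (94 to 128 counts) one of -0.30. ITGAE had 221 to 339 counts and a log2 fold change of 0.06. Its FPKM of 17.7 to 24.8 was that of a short transcript, since ENST00000572179, of 672 bases and with no defined coding sequence, held 82.2% to 86.1% of its counts. ITGA10 (6 to 20 counts) and ITGA2B (7 to 12 counts), the platelet chain, were too low for a precise value, with standard errors of 0.53 and 0.55. The spans of ITGA1 and PELO overlap, as do those of ITGA7 and BLOC1S1 and of ITGAE and GSG2. Whether the counting used strand is not stated in the sources used here.

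The remaining alpha chains, ITGAL, ITGAX, ITGAD, ITGA4, ITGA8, ITGA9 and ITGA11, had too few counts for a test, as did ITGB7 and the second ITGB3 identifier. Their highest count in any library was 6, and 5 of the 9 had at most 3 in every library. At this depth these genes could not be compared. ITGAL, ITGAX, ITGAD, ITGA4 and ITGB7 are chains known from leukocytes.

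The beta subunits, whose tails bind talin and kindlin, gave the called member with the smallest p. Of 8 entries 6 were tested and 3 were called, ITGB3 and ITGB2 (higher) and ITGB8 (lower). ITGB8, a partner of ITGAV known for binding latent TGF-beta, spans 20370325 to 20455377 of chromosome 7. It had 804 and 669 counts with EV and 302 and 345 with TET1-CD. Both TET1-CD libraries were below both EV libraries, and the normalized counts were 732 ± 14.1 (SD, n = 2) and 325 ± 5.09 (SD, n = 2). The log2 fold change of ITGB8 was -1.17 (SE 0.08, edgeR's adjusted p = 1.36e-05), which is 2.25-fold lower. Transcript ENST00000222573, of 8974 bases, held 89.3% to 92.8% of the ITGB8 counts in every library, and the shares of the groups overlapped. In bulk libraries, fewer cells that express a gene and less of its RNA per cell cannot be told apart.

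ITGB3, another partner of ITGAV and the chain of a vitronectin receptor, moved in the opposite direction to ITGB8. It spans 45331212 to 45421658 of chromosome 17 and had 809 and 712 counts with EV and 1054 and 1125 with TET1-CD. The groups were apart by more than their spread, with 757 ± 15.4 (SD, n = 2) normalized counts with EV and 1097 ± 35.5 (SD, n = 2) with TET1-CD. The log2 fold change of ITGB3 was 0.53 (SE 0.07, edgeR's adjusted p = 0.000514), a rise of 44.8%. Transcript ENST00000559488 held 95.9% to 98.3% of the counts of this gene.

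The count ratio of ITGB3 to ITGB8 was 1.01 and 1.06 with EV and 3.49 and 3.26 with TET1-CD. The ratio uses counts of the same library, so it does not depend on scaling between libraries. Its groups did not overlap, which follows from the opposite changes of both genes and adds no support to them. ITGB5, ITGB6 and ITGB8 are, with ITGB3, the beta chains here known to pair with ITGAV and not with most other alpha chains. Of the summed FPKM of these 4 genes, ITGB8 had 10.2% and 11.8% with EV and 4.95% and 4.51% with TET1-CD, and ITGB3 had 20.7% and 26.3% with EV and 33.6% and 30.1% with TET1-CD. ITGB5 remained the largest part of that sum in every library, with 60.9% to 68.8%.

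**Figure D2:**
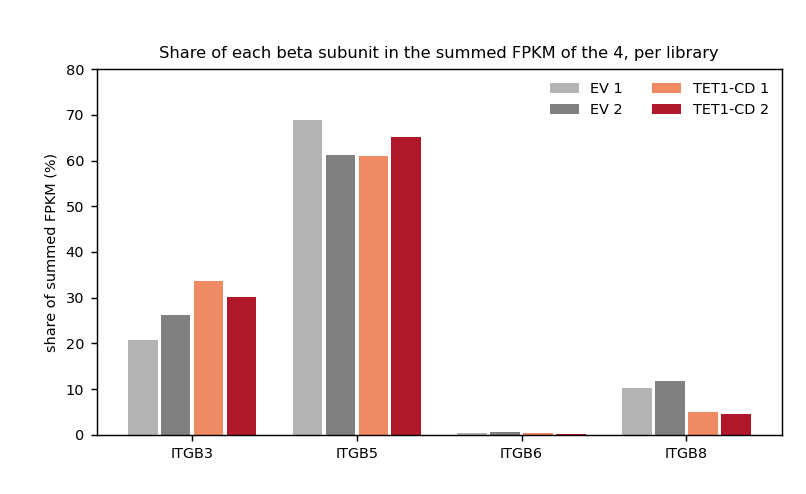
Share (%, y axis) of ITGB3, ITGB5, ITGB6 and ITGB8 in their summed FPKM, with a bar for each of the 4 libraries. The ITGB8 share is above 10% in both EV libraries and below 5% in both TET1-CD libraries, while the ITGB5 shares of the groups overlap.

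ITGB2, the common beta chain of leukocyte integrins and the partner of ITGAM, was scarce in every library, at 70 and 57 counts with EV and 94 and 117 with TET1-CD. Both TET1-CD libraries were higher, with a log2 fold change of 0.75 (SE 0.17, edgeR's adjusted p = 0.0147). DESeq2 and limma on FPKM did not call ITGB2, with the same direction. The antisense gene ITGB2-AS1, which overlaps it, had 41 and 27 counts with EV and 31 and 34 with TET1-CD, so its groups overlapped. Of the 10 leukocyte markers listed, 8 had at most 3 counts in every library, and CD2 and MS4A1 were at 0. PTPRC had 2 and 0 with EV and 2 and 0 with TET1-CD. The other two were CD14, with 13 and 15 counts with EV and 8 and 12 with TET1-CD, and CSF1R, with 3 to 6 in a library. The summed level of the 10 was 1.07 and 1.32 CPM (counts scaled to the library total) with EV and 1.14 and 0.973 with TET1-CD. Of the 4 platelet markers, GP9 and PPBP were at 0, PF4 had 1 or 2 counts and GP1BA had 19 and 10 with EV and 9 and 22 with TET1-CD. The endothelial markers found in the files summed to at most 1.18 CPM, with TEK at 0. In each of these 3 lists 1 gene had enough counts for a test, CD14, GP1BA and CDH5, with adjusted p of 0.534, 0.907 and 0.221 in edgeR.

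ITGB1, the partner of most of the alpha chains expressed here, had 27996 and 20927 counts with EV and 23727 and 25121 with TET1-CD. At an FPKM of 340 to 393 it was the highest beta chain and took 87.3% to 88.9% of the summed FPKM of the beta subunits. Its groups overlapped, and the log2 fold change was 0.02 (SE 0.07, edgeR's adjusted p = 0.861). ITGB5 had 1691 and 1317 counts with EV and 1458 and 1542 with TET1-CD, which overlapped as well (log2 fold change 0.02, SE 0.07, edgeR's adjusted p = 0.89). ITGB6, a chain of epithelia, had 9 to 16 counts and was not called. A processed copy of ITGB1, ITGB1P1, was listed with 478 to 609 counts, and how fragments were split between the copies is not stated.

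**Figure D3:**
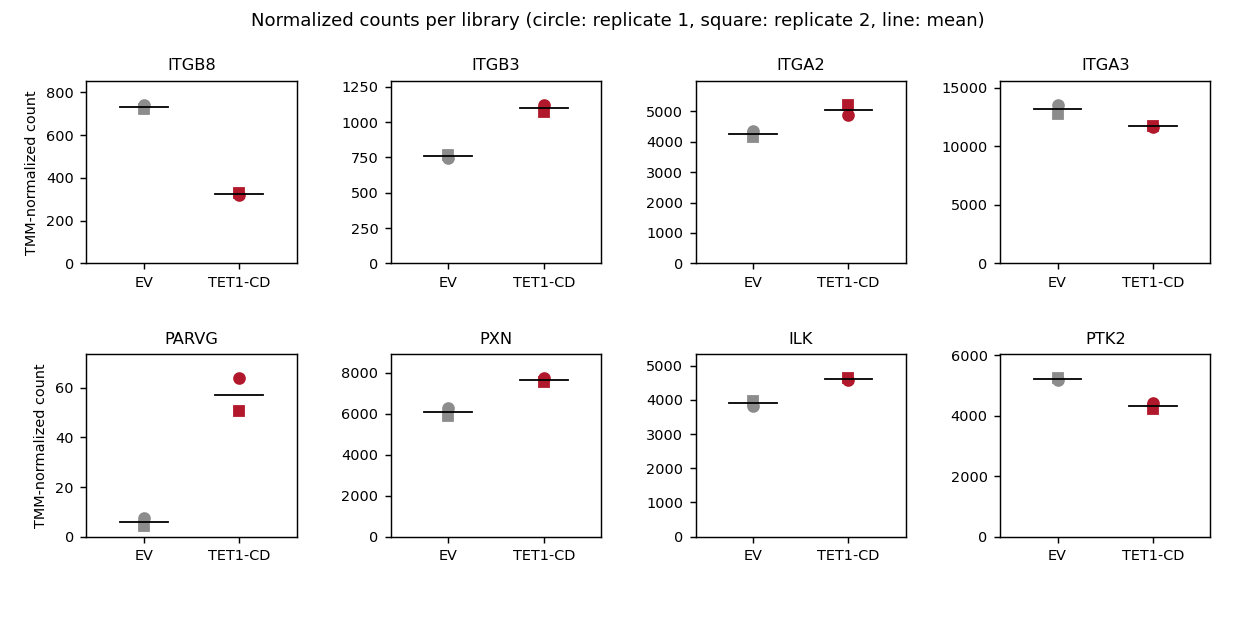
TMM-normalized counts (y axis, from 0) of 8 members in each library, with circles for replicate 1, squares for replicate 2 and lines for the group means. The 2 replicates of a group lie closer to each other than to the other group in all 8 panels, and the differences are widest for ITGB8 and PARVG.

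The adaptors and kinases held 11 of the 16 calls and were 18 of the 34 tested members. All 18 were tested, and the 11 calls are 61.1% of them. Over all tested genes 19.7% were called, and 23.4% of those above the median count level. Calls are easier at high counts, and no share was taken among genes with counts like those of the adaptors. Of the 11 calls 9 were higher and 2 lower, and the median log2 fold change of the class was 0.208. The rises were those of the scaffold PXN, of the mechanical linkers VCL, ACTN4 and ZYX, of BCAR1 and of ILK, LIMS1, LIMS2 and PARVG. The falls were those of PTK2 and PTK2B, the FAK family kinases. Apart from PARVG and LIMS2, the called adaptors rose by 14.8% to 25.1% and the kinases fell by 17.2% and 17.8%.

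PXN spans 120648250 to 120703574 of chromosome 12 and had 6831 and 5478 counts with EV and 7271 and 7918 with TET1-CD. Its normalized counts were 6107 ± 277 (SD, n = 2) and 7640 ± 139 (SD, n = 2) and did not overlap. The log2 fold change of PXN was 0.32 (SE 0.05, edgeR's adjusted p = 0.00315). Transcript ENST00000424649 held 47.2% to 48.5% of its counts and ENST00000267257 20.6% to 26.1%. The antisense gene PXN-AS1 had at most 33 counts in a library.

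PTK2, which encodes FAK, had 5599 and 4853 counts with EV and 4145 and 4413 with TET1-CD. Both TET1-CD libraries were lower, with a log2 fold change of -0.27 (SE 0.05, edgeR's adjusted p = 0.00644). PTK2B, which encodes the related kinase PYK2, had 1054 and 870 counts with EV and 771 and 789 with TET1-CD, again without overlap (log2 fold change -0.28, SE 0.07, edgeR's adjusted p = 0.0211). The ratio of PTK2 to PTK2B counts was 5.31 and 5.58 with EV and 5.38 and 5.59 with TET1-CD, with overlapping groups. In contrast, the ratio of PXN to PTK2 was 1.22 and 1.13 with EV and 1.75 and 1.79 with TET1-CD. SRC, the kinase that FAK recruits, had 2247 to 2890 counts and a log2 fold change of -0.11 (SE 0.06), which was not called.

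Several members of the ILK, PINCH and parvin complex rose. ILK had 4156 and 3674 counts with EV and 4300 and 4869 with TET1-CD, with normalized counts of 3900 ± 91.6 (SD, n = 2) and 4607 ± 43.4 (SD, n = 2). Its log2 fold change was 0.24 (SE 0.05, edgeR's adjusted p = 0.0106), and its 2 leading transcripts held 41.1% to 45.0% and 41.3% to 44.3% of its counts. The ratio of ILK to PTK2 counts was 0.742 and 0.757 with EV and 1.04 and 1.10 with TET1-CD. TAF10, on the opposite strand across part of ILK, had 785 to 877 counts.

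LIMS1, the PINCH protein with more counts here, had 1721 and 1408 counts with EV and 1822 and 1930 with TET1-CD. After normalization both TET1-CD values were above both EV values (log2 fold change 0.28, SE 0.06, edgeR's adjusted p = 0.00976). Genes named LIMS3, near-identical in sequence, had at most 47 counts in a library. LIMS2 was scarce, with 12 and 21 counts with EV and 46 and 48 with TET1-CD. Its groups did not overlap, and the log2 fold change was 1.51 (SE 0.35, edgeR's adjusted p = 0.0153). LIMS2 was 1.57% and 2.51% of the summed FPKM of both genes with EV and 3.48% and 4.11% with TET1-CD, and DESeq2 did not call it. Its log2 fold change was 1.05 without EV replicate 1 (edgeR's adjusted p = 0.06), 2.08 without EV replicate 2 and 0.53 with limma on log2(FPKM + 1).

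The parvins bind ILK and actin, and PARVG is the form known from blood cells. PARVG spans 44568836 to 44615413 of chromosome 22 and had 8 and 4 counts with EV and 60 and 53 with TET1-CD. Both TET1-CD libraries were far higher, at 5.85 ± 2.17 (SD, n = 2) and 57.2 ± 9.46 (SD, n = 2) normalized counts. The log2 fold change of PARVG was 3.23 (SE 0.38, edgeR's adjusted p = 0.000402), or 9.40-fold. With limma on log2(FPKM + 0.1) and on log2(FPKM + 1), scales that lower the change of scarce genes, it was 2.05 and 1.05. No single transcript led in every library. ENST00000415224 had 0 counts in both EV libraries and 27 and 9 with TET1-CD, and ENST00000356909 had 3 and 1 with EV and 4 and 24 with TET1-CD. PARVG nevertheless made up only 1.80% and 2.30% of the summed parvin FPKM with TET1-CD, against 0.524% and 0.357% with EV. The neighbouring PARVB, which ends at 44568829 on the same strand, had 1054 and 875 counts with EV and 1087 and 1111 with TET1-CD and a log2 fold change of 0.21 (SE 0.07, edgeR's adjusted p = 0.0566). PARVA had 2555 to 2986 counts and a log2 fold change of -0.03.

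Among the linkers to actin, VCL had 11353 and 9011 counts with EV and 11452 and 12399 with TET1-CD. Its normalized counts were 10100 ± 532 (SD, n = 2) and 11998 ± 267 (SD, n = 2), with a log2 fold change of 0.25 (SE 0.06, edgeR's adjusted p = 0.0137). Transcript ENST00000372755 held 97.4% to 99.1% of the VCL counts in each of the 4 libraries.

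ACTN4, at an FPKM of 200 and 178 with EV and 242 and 245 with TET1-CD, had the highest level of all the adaptors. It had 11522 and 9122 counts with EV and 11328 and 12202 with TET1-CD, and rose by 0.21 on the log2 scale (SE 0.06, edgeR's adjusted p = 0.0296). Its leading transcript ENST00000252699 held 64.4% and 68.7% of the counts with EV and 61.2% and 57.4% with TET1-CD. The log2 fold change of this transcript was 0.05 (SE 0.06), so the rise lay mostly in counts assigned to other ACTN4 transcripts. ACTN1, with 12235 and 9619 counts with EV and 11612 and 12567 with TET1-CD, had a log2 fold change of 0.17 (SE 0.06, edgeR's adjusted p = 0.072) and was not called. For both alpha-actinins the normalized values of the groups did not overlap. The 2 genes are similar in sequence, and how fragments that match both were counted is not stated.

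ZYX, or zyxin, which gathers at strained actin bundles, had 4508 and 3934 counts with EV and 4758 and 5014 with TET1-CD (log2 fold change 0.23, SE 0.05, edgeR's adjusted p = 0.0169). BCAR1 had 3266 and 2889 counts with EV and 3383 and 3608 with TET1-CD (log2 fold change 0.20, SE 0.05, edgeR's adjusted p = 0.0301). In both genes the TET1-CD libraries were above the EV libraries. The tensins, which bind integrin tails in fibrillar adhesions, did not pass the test. TNS3 had 3542 to 4440 counts and a log2 fold change of -0.04, TNS1 had 119 to 167 counts and one of -0.06, and TNS4 had 8 to 19 counts and one of 0.93 (SE 0.43).

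In all, 18 tested members were not called, with adjusted p between 0.0529 and 0.89 in edgeR. The 14 of them that reached 100 counts in a library had log2 fold changes from -0.30 to 0.21, and the other 4 were scarce.

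The files list 551 transcripts of the members, and 141 were tested singly. None was called at an adjusted p under 0.05 by edgeR, where the smallest adjusted p was 0.129, and 33 (23.4%) had an unadjusted p under 0.05. In all transcripts tested by edgeR, 0.00231% were called and 11.2% had an unadjusted p under 0.05. DESeq2 called 19 of the 171 member transcripts for which it gave an adjusted p (11.1%), from 14 genes, against 4.51% of all transcripts. In DESeq2, ENST00000222573 of ITGB8 (log2 fold change -1.19, adjusted p = 2.99e-15) and ENST00000559488 of ITGB3 (log2 fold change 0.55, adjusted p = 1.47e-05) had values close to those of their genes. Calls of single transcripts thus depended on the tool. The assignment of fragments to transcripts is itself an estimate.

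**Figure D4:**
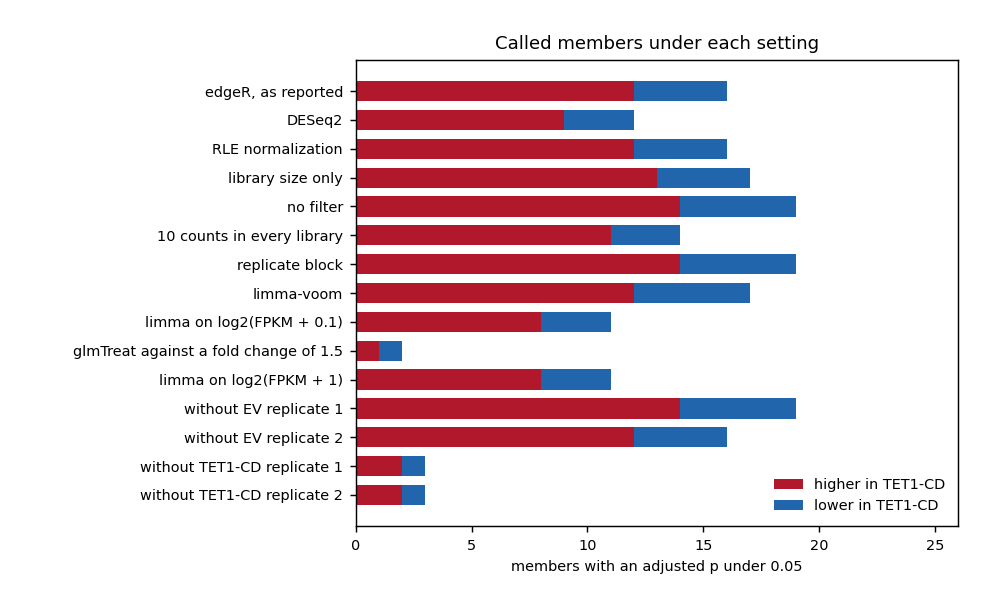
Number of members called (x axis) under each of 15 settings of the analysis (y axis), split into higher and lower with TET1-CD. Under the settings that keep all 4 libraries the count is 11 to 19, except the test against a fold change of 1.5, where it is 2. Of the settings that leave out 1 library, those without a TET1-CD library have fewer calls, as they do over all tested genes.

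A list of 40 integrin ligands gave mostly rises among its calls. Of 30 tested, 17 were called (56.7%, against 19.7% of all tested genes), 13 higher and 4 lower, and the median log2 fold change was 0.305. The list was chosen with earlier results of these data known, so this share is a description only. The summed level of the list was 7180 and 6890 CPM with EV and 6880 and 6960 with TET1-CD, with overlapping groups. TGFBI, a matrix protein that binds integrins, had 322 and 280 counts with EV and 1208 and 1263 with TET1-CD (log2 fold change 2.05, SE 0.08, edgeR's adjusted p = 1.33e-07). COL1A1, a chain of type I collagen, had 88 and 70 counts with EV and 266 and 314 with TET1-CD (log2 fold change 1.89, edgeR's adjusted p = 1.03e-05), and THBS2, a thrombospondin, had 105 and 91 with EV and 280 and 296 with TET1-CD (log2 fold change 1.57, edgeR's adjusted p = 2.51e-05). For these 3 genes the TET1-CD libraries exceeded both EV libraries. Without either TET1-CD library fewer of the ligand genes were called, as over all tested genes.

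Of 48 further focal adhesion and signalling partners, 47 were tested and 11 were called (23.4%), 9 higher and 2 lower, and the median log2 fold change was 0.022. This share was close to that of all tested genes. FERMT3, the kindlin of blood cells, had 5 and 4 counts with EV and 343 and 335 with TET1-CD. Its log2 fold change was 6.21 (SE 0.22, edgeR's adjusted p = 1.05e-07). Like PARVG, it passed the filter on low counts through its TET1-CD libraries, so a difference in it follows in part from the filter. PDLIM5 rose by 0.56 on the log2 scale (edgeR's adjusted p = 0.000188), and CAV1, the caveolin, fell by 0.55 (edgeR's adjusted p = 0.000155). DESeq2 called 5 of these genes, against 9.13% of all genes given an adjusted p. EdgeR called fewer of them without either TET1-CD library and more without EV replicate 1, as it did over all tested genes.

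Of 30 actin cytoskeleton genes, 28 were tested and 8 were called (28.6%, against 19.7% of all tested genes), 7 higher and 1 lower, and the median log2 fold change was 0.038. The 3 with the smallest p were higher in both TET1-CD libraries: TAGLN, or transgelin, with 990 and 835 counts with EV and 2084 and 2175 with TET1-CD, MYL9, a myosin light chain, with a log2 fold change of 0.63, and TPM1, a tropomyosin, with one of 0.39 (edgeR's adjusted p = 1.12e-06, 0.000163 and 0.00111). Fewer of these genes were called without either TET1-CD library and more without EV replicate 2, as over all tested genes. The lists were described by these counts alone.

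The pair of integrin genes that the members leave out, ITGA6 and ITGB4, form a laminin receptor of hemidesmosomes. ITGB4 had 92 and 53 counts with EV and 333 and 462 with TET1-CD, with a log2 fold change of 2.47 (SE 0.18, edgeR's adjusted p = 1.57e-05). ITGA6 had 5137 and 3530 counts with EV and 4407 and 4614 with TET1-CD, with overlapping groups and a log2 fold change of 0.09. The alpha chain of this receptor, like ITGA5 and ITGAV, was therefore not called, whereas its beta chain was.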

How the data were processed

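For each of 195700 transcripts the authors deposited an expected count (an estimate that can be fractional) and an FPKM value (per transcript length and library total), with GRCh37 coordinates. Per the labels, the processing notes list cutadapt 1.9.1, HISAT2 2.0.1, HTSeq 0.6.1 and DESeq2 without their roles, and the program behind the fractional counts is not given in the sources used here. Libraries were poly(A)-selected or depleted of rRNA, and strand is not stated.

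Expected counts were summed per gene and rounded, and FPKM was summed per gene. TET1-CD and EV libraries were compared by edgeR 4.0.16 (glmQLFit and glmQLFTest, TMM factors 0.993 to 1.005, filterByExpr, no block) in R 4.3.3. Standard errors were obtained from the log2 fold change and the square root of F, as their quotient. Single transcripts were tested in the same way. The script was also run on simulated counts, in which the changed genes had larger fold changes than most called members. That run does not cover changes as small as theirs. Counts of at most 3 were read as the detection floor, for counting error only.

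The members and all gene lists were chosen with earlier results of these data known. Every member is accounted for, and values in each library are given for those with an adjusted p under 0.05 and for the 3 highest by FPKM in each role. In each pathway list the 3 genes with the smallest p are named. The marker lists were urothelial and epithelial, mesenchymal, leukocyte, platelet and endothelial genes.

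Alternatives were limma 3.58.1 (voom, and log2 of FPKM plus 0.1 or 1), DESeq2 1.42.0, a replicate block, normalization by RLE or library size, a minimum of 10 counts per library or no filter, glmTreat at 1.5-fold and fits that each left out 1 library. Same-numbered libraries did not deviate together (correlation across genes 0.007), so the numbers were not taken as pairs.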

Additional observations from a re-analysis of the deposited data

How the results depend on the processing

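The number of members called at an adjusted p under 0.05 (16) was 2 with glmTreat against a fold change of 1.5. There, 2.07% of all tested genes were called. The number of called members stayed within 1.5 times 16 under the other alternatives that kept every library. Among them was DESeq2 with 12, against 9.13% of all genes given an adjusted p. In the fits that left out 1 library it was lower without either TET1-CD library, as was the number over all tested genes. The number called with a fold change of 2 (4) was 2 with DESeq2, 2 with 10 counts in every library, 2 with glmTreat, 1 with limma on log2(FPKM + 1) and 2 to 3 without single libraries. With 10 counts in every library ITGAM and PARVG were not tested, which took away 2 calls. Of the member transcripts, none was called by edgeR, 19 by DESeq2 and 1 with 10 counts in every library. With DESeq2, 14 integrin ligands (17 in edgeR), 5 focal adhesion partners (11 in edgeR) and 8 actin genes (8 in edgeR) were called. Without either TET1-CD library each list had fewer calls, as did all tested genes. The signs of the log2 fold changes of ITGA5 (-0.0005 to 0.05), ITGB1 (-0.07 to 0.11) and ITGB5 (-0.05 to 0.08) turned when a library was left out, and none of these genes was called. Where a count changed with the tool or with a library, the cause was not tested. Over all tested genes, too, fewer were called by DESeq2 and without a TET1-CD library, and more without an EV library. The replicate block gave 19 called members, against 22.2% of all tested genes called. Of these members 16 were the same genes, and no call of a fold change of 2 changed. With 1 library left in a group, its spread was assumed to be that of the other group. Depth limits the members under about 30 counts, among them ITGAM, TNS4, ITGA10, ITGA2B and ITGB6.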

Other observations

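Of the 19 member transcripts that DESeq2 called, 5 had 0 counts in both libraries of one group. They are given as values, chosen after these were seen, and edgeR called none of them. ENST00000457718 of TNS3 had 0 counts in both EV libraries and 22 and 52 with TET1-CD, beside 3542 to 4440 counts of the gene. ENST00000338045 of LIMS1 had 0 with EV and 24 and 16 with TET1-CD, ENST00000552550 of PXN, 588 bases long, had 0 with EV and 28 and 13 with TET1-CD, and ENST00000415224 of PARVG, described with its gene, was the fourth. ENST00000347027 of ITGA7 went the other way, with 28 and 27 counts with EV and 0 in both TET1-CD libraries, while the gene as a whole had 128 and 110 with EV and 94 and 97 with TET1-CD. Counts of single transcripts are estimates made from shared fragments, and the part of the estimation in these zeros was not tested.

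Within PTK2, ENST00000521059 held 71.6% and 63.4% of the counts with EV and 66.8% and 62.5% with TET1-CD, so the groups overlapped, and ENST00000519993, annotated as a target of nonsense-mediated decay, had 262 and 261 counts with EV and 152 and 156 with TET1-CD. Within ITGB2, ENST00000397850 held 70.3% and 59.0% with EV and 55.4% and 17.5% with TET1-CD, at 20 to 52 counts.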
